A study of Mus musculus with 26 samples.

Results

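The LPS response of Kupffer cell chromatin was compared between the BALB/cJ and the C57BL/6J allele of the same CB6F1/J animals. CB6F1/J mice are the first-generation cross of a BALB/cJ female and a C57BL/6J male. The members are open-chromatin peaks on chromosomes 1 to 19 with a mean normalised count of at least 32 over the 18 allele columns, 2 per animal, and with tags in both treatments. Of 217456 peaks in the table of the hybrid, 213225 lay on these chromosomes and 2756 (1.29%) met the rule, assigned to 1984 nearest genes. The lowest mean of a member was 32.02 and the highest mean below the limit 31.99, and 8 further peaks reached the limit but had no tags in 1 treatment. Only tags that matched 1 parental genome perfectly and spanned a known difference between the parents were counted, since no other tag can be given to an allele, and 168692 autosomal peaks held no such tag on either allele. The quantity tested was the allele by LPS interaction, the log2 LPS response of the C57BL/6J allele minus that of the BALB/cJ allele. A positive value means that the C57BL/6J allele gained more, or lost less, accessibility than the BALB/cJ allele.

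All 9 animals were male and 8 to 12 weeks old, and gave 1 ATAC-seq library each. The paper states an overnight fast for its LPS experiment. The names of the allele columns of control animals say chow, and no label says whether these animals were fasted. A difference in fasting could thus not be told apart from one of treatment. The 4 control animals were uninjected, and the 5 LPS animals had received E. coli O114:B4 lipopolysaccharide (LPS), injected into the peritoneum at 0.1 mg/kg, 2 h before they were killed. Because controls had no sham injection, the response includes whatever the injection itself does. Kupffer cells of both groups were sorted after a liver digestion that contained flavopiridol, a blocker of transcription. The names of the control libraries carry 1 date and those of the LPS libraries 2 later ones, the first for replicates 1 and 2 and the second for replicates 3 to 5, so an effect of date cannot be told apart from one of treatment. An allele comparison within an animal is made inside 1 library, but its change between treatments is not.

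ATAC-seq counts the places where a transposase can insert into DNA, and so reports which promoters and enhancers are open. Kupffer cells are the macrophages that reside in the sinusoids of the liver. They meet bacterial products from the gut through the portal blood and sense LPS through the receptor TLR4 with its partners CD14 and MD-2. TLR4 signals to NF-kB and AP-1 and, by another adaptor, to interferon regulatory factors, which open and close enhancers within hours. In an F1 hybrid both alleles sit in 1 nucleus and meet the same LPS, hormones and transcription factors, so a difference between them in response is tied to the chromosome that carries it.

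Among the called regions 6 are shown here as mm10 sequence, because they carry the clearest differences or letters of a factor in the LPS pathway. Each is a whole peak of 201 bases on the plus strand, read from the reference, and therefore shows the C57BL/6J allele. The variants that separate the alleles were not analysed here. Capitals mark matches on either strand to the letters searched: GAAANNGAA for IRF, TGANTCA for AP-1, GGANNTTCC for NF-kB (RelA), GGAAGT for PU.1 and other ETS factors, TTGNNNAA for C/EBP and TGACGTCA for CRE. The Oasl1 peak (chr5:114926878-114927078) and the Marcksl1 promoter peak (chr4:129513334-129513534) held none of them. The Rsad2 peak (chr12:26439417-26439617) held 2 IRF matches, the Bcl2l14 peak in an intron of Lrp6 (chr6:134461262-134461462) held 1 AP-1 match, and the Cldn23 peak (chr8:35716571-35716771) held 3 AP-1 matches and 1 ETS match. The 6330407A03Rik peak in an intron of Lyn (chr4:3744037-3744237) held 2 ETS matches and 1 C/EBP match.
Oasl1: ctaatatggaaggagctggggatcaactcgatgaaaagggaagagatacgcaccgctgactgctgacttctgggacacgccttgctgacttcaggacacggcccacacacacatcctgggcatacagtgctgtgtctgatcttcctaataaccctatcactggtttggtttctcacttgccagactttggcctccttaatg
Rsad2: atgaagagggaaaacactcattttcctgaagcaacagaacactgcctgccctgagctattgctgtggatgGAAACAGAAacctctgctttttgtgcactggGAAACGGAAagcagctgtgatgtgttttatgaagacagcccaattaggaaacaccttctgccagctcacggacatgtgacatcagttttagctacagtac
Bcl2l14: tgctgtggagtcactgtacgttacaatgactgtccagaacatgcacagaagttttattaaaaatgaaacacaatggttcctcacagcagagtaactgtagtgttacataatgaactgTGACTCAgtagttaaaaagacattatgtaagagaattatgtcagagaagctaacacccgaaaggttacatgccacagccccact
Marcksl1: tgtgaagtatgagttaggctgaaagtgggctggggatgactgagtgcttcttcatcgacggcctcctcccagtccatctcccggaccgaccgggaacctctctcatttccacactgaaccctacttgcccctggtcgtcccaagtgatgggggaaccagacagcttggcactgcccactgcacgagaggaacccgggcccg
Cldn23: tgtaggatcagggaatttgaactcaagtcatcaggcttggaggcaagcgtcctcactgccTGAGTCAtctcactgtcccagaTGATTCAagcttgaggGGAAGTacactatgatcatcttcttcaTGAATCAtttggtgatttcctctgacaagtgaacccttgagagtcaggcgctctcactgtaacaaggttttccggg
6330407A03Rik: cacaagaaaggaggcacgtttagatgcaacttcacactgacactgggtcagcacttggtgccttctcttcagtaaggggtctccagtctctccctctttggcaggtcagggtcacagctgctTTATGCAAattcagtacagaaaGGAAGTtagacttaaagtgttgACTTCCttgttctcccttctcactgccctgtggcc

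Depth was compared first. Variant-spanning tags numbered 2380384 to 4534918 per animal over the genome and 126344 to 293562 per allele column within the 2756 peaks. The BALB/cJ allele held 48.7 to 49.4% of the tags in these peaks in every animal, on average 49.1% ± 0.24 (SD, n = 4) in controls and 49.3% ± 0.073 (SD, n = 5) after LPS, a difference of 0.21 points (two-sided exact permutation test, p = 0.0635). Libraries differed by treatment in other ways: 8.63 to 9.21% of the variant-spanning tags fell in the members in control animals and 11.2 to 20.9% in LPS animals. An allele column held 126344 to 198398 tags in the members in control animals and 170594 to 293562 in LPS animals. Raw tags printed below are not scaled for this, so changes between treatments are to be read from fitted or normalised values. Promoter peaks of 11 of 11 Kupffer cell marker genes were present, with a summed level of 4378 to 5018 normalised counts in controls and 2374 to 3168 after LPS. None of 5 hepatocyte markers had a promoter peak. Peaks of sinusoidal endothelium (2 of 5) summed to 49.5 to 110 in controls and 128.2 to 242 after LPS, of stellate cells (3 of 4) to 1156 to 1539 and 737 to 1126, of neutrophils (1 of 4) to 175 to 238 and 184 to 245, of monocytes (2 of 3) to 9.41 to 68.4 and 3.85 to 37.8, and of lymphocytes (2 of 6) to 34.9 to 75.4 and 14.5 to 47.0. The endothelial gain was that of Lyve1 (57.5 to 167 on average), while Kdr stood at 22.7 and 28.7, and Hgf held most of the stellate sum (1263 and 938), while Lrat stood at 14.2 and 13.9. In bulk libraries fewer cells of a type and less accessibility per cell cannot be told apart, and the part of these shifts in the results below was not tested.

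The alleles largely shared their LPS response. On the sum of the alleles, 905 peaks (32.8%) passed the test, 490 with gained accessibility (17.8%) and 415 with lost accessibility (15.1%). Passing, or being called, required 0.05 as the limit for p after Benjamini-Hochberg adjustment over all 2756 peaks, and also a log2 value beyond 1 in either direction (edgeR quasi-likelihood test). The alleles had the same sign at 901 of the 905 called peaks. That agreement and the medians below are descriptions, since a call on the sum of both alleles favours alleles that move together. The median log2 response was 1.67 on the BALB/cJ and 1.59 on the C57BL/6J allele at peaks that gained, and -1.43 and -1.44 at peaks that lost. Across all members the responses of the 2 alleles had a Pearson's r of 0.89, a description only, as each pair of values comes from the same libraries. In the inbred strains, whose libraries are separate, both strains moved the same way at 390 of 442 matched peaks that gained (88.2%) and at 317 of 351 that lost (90.3%). Median changes there, from group means with 1 added, were 0.98 in C57BL/6J and 1.14 in BALB/cJ at the former and -0.61 and -0.90 at the latter, and both strains moved the opposite way at 9 and 11 peaks.

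Against this shared response, 16 peaks (0.581%) were called for an allele difference. In 8 (0.29%) the C57BL/6J allele and in 8 (0.29%) the BALB/cJ allele had the higher response. A further 3 peaks passed the limit for the adjusted p but had a log2 value within ±1, and 358 peaks (13%) had an unadjusted p under 0.05, 181 above (6.57%) and 177 below 0 (6.42%). The interaction over all members had a median of -0.01 with an interquartile range of -0.28 to 0.26 and a median SE of 0.33. Leaving out 1 animal at a time left 5 to 19 peaks called: 5 without control replicate 2, LPS replicate 1 or LPS replicate 2, 6 without LPS replicate 3 and 7 without LPS replicate 4. Of the 16 peaks 5 were called each time (6330407A03Rik, Gm10416, Oasl1, Bcl2l14 and Marcksl1), and with the LPS animals of 1 library date alone none was called, with 190 (replicates 1 and 2) and 239 (replicates 3 to 5) peaks at an unadjusted p under 0.05 (edgeR). The 16 peaks lay on 11 chromosomes. By the deposited annotation 8 of them were intergenic, 5 intronic and 3 at promoters, while the 2756 members held 799 intergenic, 845 intronic, 976 promoter, 27 exonic and 109 other peaks. A second annotation places the Gm10416, H2-Ob and Cldn23 peaks, intergenic in the deposited one, within a gene. In it the start of 4930522L14Rik lies within 1 kb of the Gm10416 peak.

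**Figure D1:**
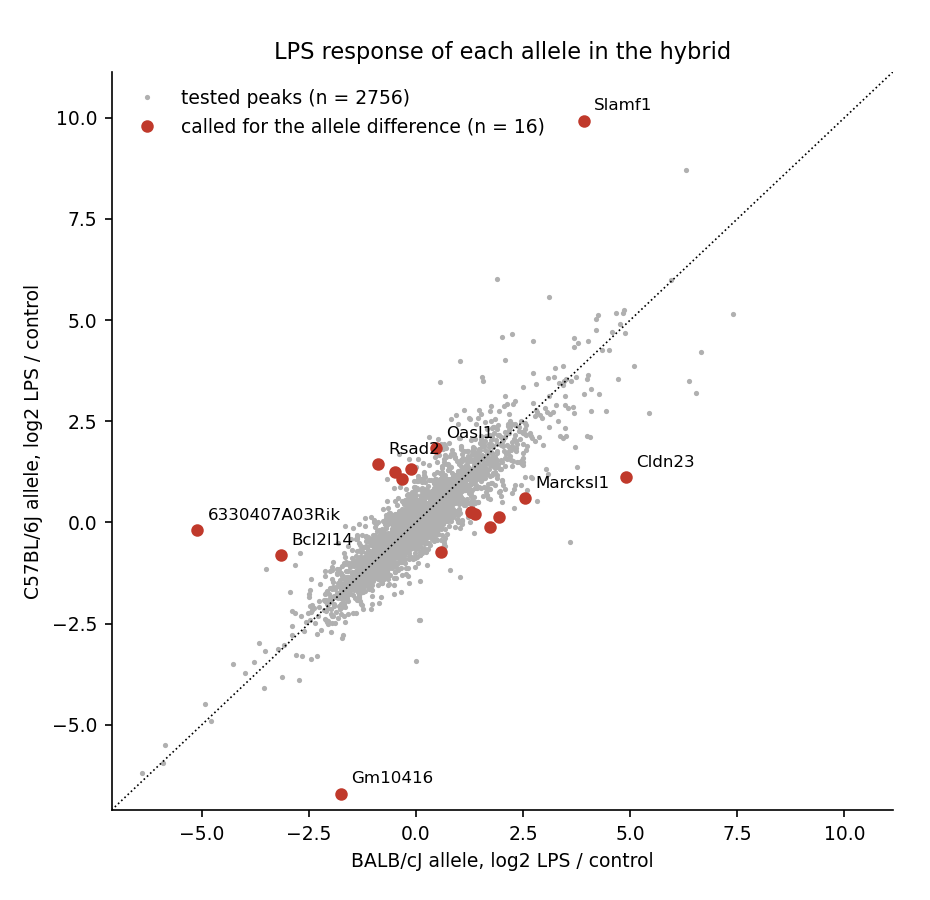
LPS response (log2 LPS over control) of the BALB/cJ allele (x axis) and the C57BL/6J allele (y axis) in the hybrid at 2756 peaks, with the 16 peaks called for an allele difference in red and the line of equal response dotted. Most peaks follow the line (Pearson's r 0.89), and the called peaks lie 1.01 to 5.98 log2 units from it; the value of Slamf1 rests on a group with 0 tags.

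At 7 of the 8 peaks with the higher C57BL/6J response, the C57BL/6J allele was called lower in control animals and its ratio was no longer called after LPS. These were the peaks nearest to Oasl1, Rsad2, Bcl2l14, Il21r, Slamf1, Batf3 and H2-Ob. The 8 peaks with the higher BALB/cJ response were less alike: after LPS 3 were called with BALB/cJ higher (Marcksl1, Gm10416 and 4930473A02Rik), and in control animals 4 had C57BL/6J higher at an adjusted p under 0.05 (Pag1, F930015N05Rik, Tbc1d1 and Cldn23). Over the 16 the allele ratio was larger in control animals at 10 peaks and larger after LPS at 6. Control ratio, LPS ratio and interaction share their tags, so this is a description of the called peaks. In all 16 the allele ratios of the 4 control and 5 LPS animals did not overlap, as was so for 158 of all 2756 peaks (5.73%). Separation of 4 from 5 animals gives a two-sided exact permutation p of 0.0159, the smallest that the 126 splits allow. That p is unadjusted, and the 16 peaks were called on the same tags, so it is a description only.

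**Figure D2:**
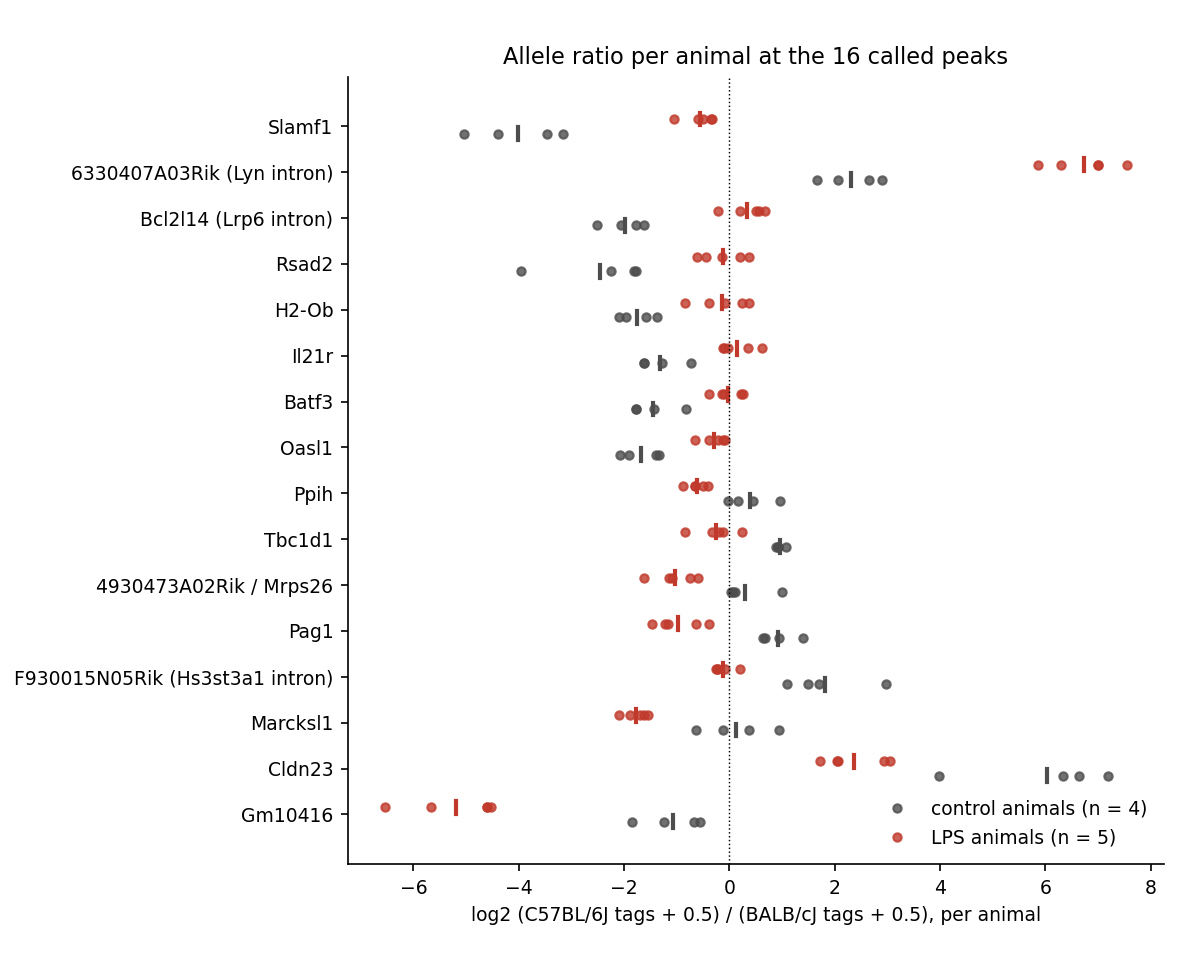
Log2 ratio of C57BL/6J to BALB/cJ tags, with 0.5 tags added to each, in every animal at the 16 called peaks (gray points 4 control animals, red points 5 LPS animals, vertical bars group means). Control and LPS animals do not overlap at any of the 16 peaks, as at 158 of all 2756 peaks (5.73%). At Rsad2, Bcl2l14, Il21r, Batf3 and H2-Ob the LPS animals lie around equal alleles.

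Of the called peaks 2 lay at interferon-induced genes. Oasl1 encodes an oligoadenylate synthetase-like protein that restrains the interferon response, and its peak is in an intron 3738 bp inside the gene. In control animals the BALB/cJ allele had 167, 128, 122 and 121 tags and the C57BL/6J allele 66, 30, 32 and 46. After LPS they had 300, 342, 211, 340 and 262 against 258, 261, 195, 319 and 167. The C57BL/6J allele was the lower in each control animal and drew near to the other after LPS, in every LPS animal still below it. The normalised count of the C57BL/6J allele went from 53.2 ± 10.8 (SD, n = 4) to 192 ± 26.6 (SD, n = 5), a fitted 3.56-fold rise, and that of the BALB/cJ allele from 173 ± 20.4 to 238 ± 24.6, a 1.39-fold rise. The interaction was 1.37 ± 0.19 (SE) on the log2 scale, with an adjusted p of 0.00925 (edgeR). A second Oasl1 peak 1432 bp away had an interaction of 0.08 ± 0.27.

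Rsad2 encodes viperin, an antiviral enzyme of the interferon response. Its called peak, the region with 2 IRF matches, lies 16935 bp from the start of the gene, and its counting window overlaps those of 2 other Rsad2 peaks and shares tags with them. These lie at +510 bp (interaction 1.97 ± 1.93) and -550 bp (0.12 ± 0.52) along the chromosome and were not called. Their log2 ratios of C57BL/6J to BALB/cJ were opposite: 2.42 in controls and 4.38 after LPS at +510 bp, -3.07 and -2.94 at -550 bp. On summed alleles their log2 LPS responses were 4.34 and 1.46. How far the shared tags shape the called interaction was not tested. At the called peak the BALB/cJ allele of control animals had 56, 64, 69 and 33 tags against 16, 13, 4 and 9 on the C57BL/6J allele. After LPS the counts were 52, 50, 30, 55 and 54 against 67, 45, 22, 63 and 35. The C57BL/6J allele was the lower in all 4 controls and in 3 of 5 LPS animals. Its fitted fold was 2.72 and that of the BALB/cJ allele 0.54. The interaction was 2.30 ± 0.43 (adjusted p = 0.0367, edgeR). A second Rsad2 peak at chr12:26441924-26442124 was almost closed in controls, with 3, 0, 0 and 0 BALB/cJ tags and 0, 0, 3 and 0 C57BL/6J tags. After LPS it held 313, 217, 169, 235 and 181 BALB/cJ tags and 40, 27, 55, 74 and 33 C57BL/6J tags. In that peak the BALB/cJ allele was the higher in every LPS animal (log2 ratio -2.33, adjusted p = 1.4e-04, edgeR), but with 3 control tags per allele the interaction of -2.29 ± 1.83 did not pass the test (adjusted p = 0.668, edgeR).

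Il21r, the interleukin-21 receptor, had a peak 21975 bp upstream of its start. The BALB/cJ allele held 158, 72, 66 and 108 tags in controls and 160, 137, 77, 149 and 101 after LPS, and the C57BL/6J allele 51, 23, 27 and 65 and then 157, 128, 118, 136 and 129. The C57BL/6J allele was well below the other in each control and close to it in LPS animals (interaction 1.43 ± 0.25, adjusted p = 0.0308, edgeR). H2-Ob encodes the beta chain of H2-O, which regulates peptide loading of MHC class II. Its peak held 72, 24, 57 and 28 BALB/cJ against 18, 9, 13 and 9 C57BL/6J tags in controls, and 40, 47, 39, 68 and 49 against 52, 36, 46, 64 and 27 after LPS. The interaction was 1.71 ± 0.35 (adjusted p = 0.0473, edgeR), and a second H2-Ob peak at -15523 bp along the chromosome had -1.04 ± 0.34 (adjusted p = 0.214, edgeR).

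Batf3 encodes an AP-1 family factor that dendritic cells need for cross-presentation, and its peak lies 21073 bp downstream of the start. It had 61, 63, 66 and 80 BALB/cJ tags and 34, 18, 24 and 23 C57BL/6J tags in controls. After LPS the counts were 100, 97, 63, 100 and 126 against 116, 74, 75, 93 and 114. Log2 responses were -0.12 on the BALB/cJ and 1.32 on the C57BL/6J allele, with an interaction of 1.42 ± 0.25 (adjusted p = 0.0331, edgeR). All 5 tested peaks within 100 kb of it had values below 0, among them a Batf3 peak at -4081 bp with -0.85 ± 0.28 (adjusted p = 0.216, edgeR). Slamf1 encodes a surface receptor of the SLAM family, found on lymphocytes and activated macrophages. Its peak, 4996 bp upstream, had 4, 16, 10 and 5 BALB/cJ and 0, 0, 0 and 0 C57BL/6J tags in controls, and 208, 208, 174, 259 and 200 against 163, 138, 84, 183 and 159 after LPS. Both alleles opened from a low level, and before LPS tags were seen on the BALB/cJ allele alone. Against a floor of 3 counts over the 4 controls, the BALB/cJ allele was at least 11.7-fold higher in controls. After LPS it was 1.44-fold higher, so the ratio of ratios was at least 8.09 (log2 3.02). The fitted interaction of 5.98 ± 0.91 (adjusted p = 0.0308, edgeR) depends on how 0 counts are treated and is no measure of size. A second Slamf1 peak at -27059 bp had an interaction of -1.82 ± 0.75 (adjusted p = 0.321, edgeR).

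**Figure D3:**
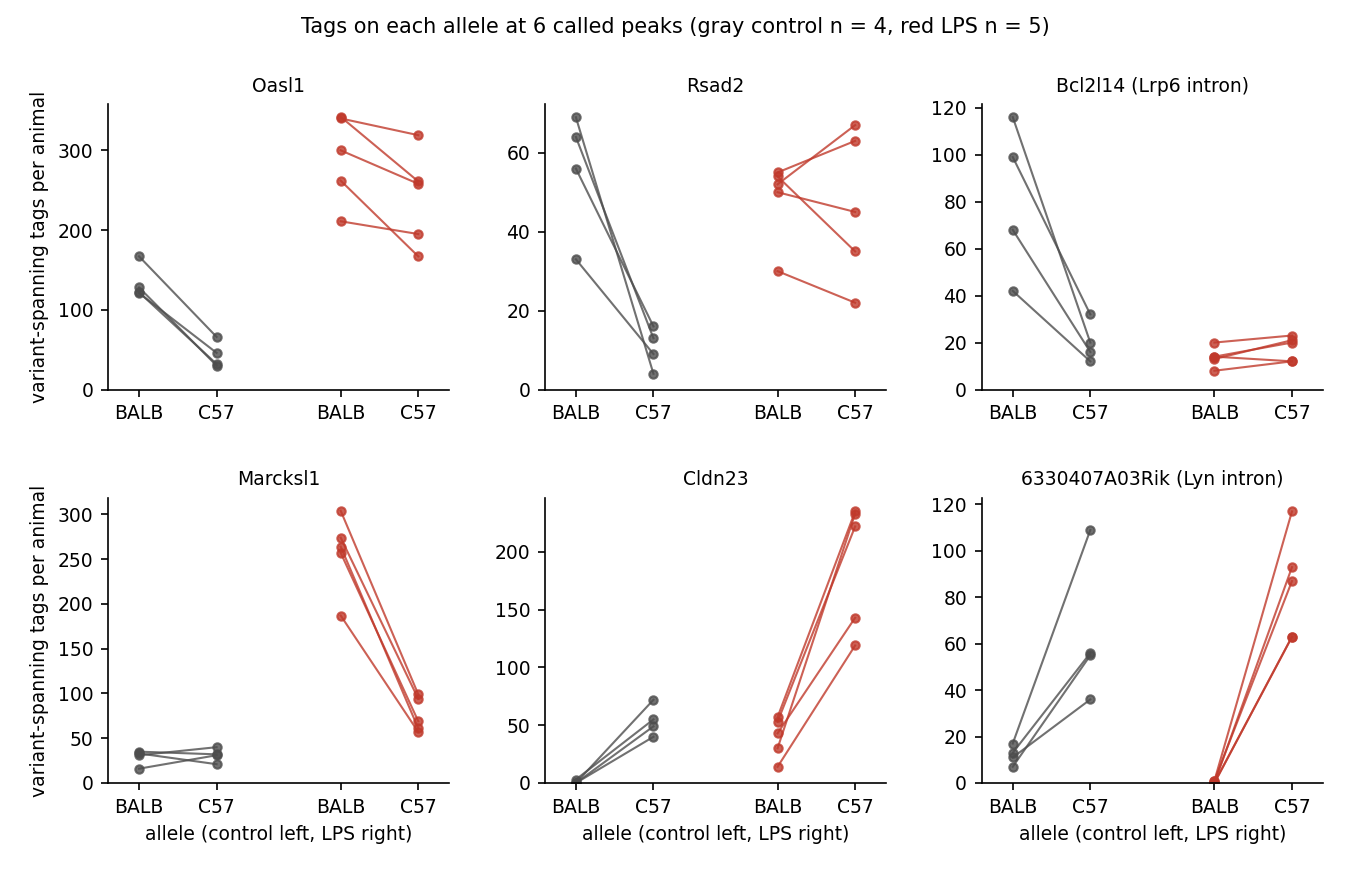
Variant-spanning tags on the BALB/cJ and C57BL/6J allele of each animal at 6 called peaks (y axis, raw tags in the counting window, with its own range in each panel), each line 1 animal, gray for 4 control and red for 5 LPS animals. The alleles part in controls and draw near after LPS at Oasl1, Rsad2 and Bcl2l14, and part after LPS at Marcksl1, where the BALB/cJ allele rises to 187 to 304 tags.

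Bcl2l14, a gene of the BCL2 family, was the nearest gene by start to a peak that lies within an intron of Lrp6, a Wnt co-receptor. On the variant-spanning tags of the hybrid this region closed, unlike in the inbred strains described below. The BALB/cJ allele went from 99, 42, 68 and 116 tags to 20, 14, 14, 13 and 8, and the C57BL/6J allele from 32, 12, 16 and 20 to 23, 20, 12, 21 and 12. The BALB/cJ allele was the higher in every control animal and in 1 of 5 LPS animals. Its log2 response was -3.16 ± 0.31 (SE) against -0.81 ± 0.41 on the C57BL/6J allele, and the interaction was 2.36 ± 0.34 (adjusted p = 0.00925, edgeR). At the other 7 peaks with a positive interaction the log2 response of the C57BL/6J allele was 1.08 or more, except at 6330407A03Rik, where it was -0.20.

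The 6330407A03Rik peak lies in an intron of Lyn, a SRC family kinase of macrophages and B cells, 29173 bp from the start of the annotated non-coding gene. The C57BL/6J allele had 109, 36, 56 and 55 tags in controls and 93, 63, 63, 117 and 87 after LPS. On the BALB/cJ allele there were 17, 11, 13 and 7 and then 0, 0, 0, 1 and 1. The C57BL/6J share of the tags was 84.2% (exact 95% interval 79.6 to 88.1) in controls and 99.5% (98.3 to 99.9) after LPS. The interaction of 4.93 ± 0.60 (adjusted p = 0.00586, edgeR) rests on 2 BALB/cJ tags in LPS animals, and a tag in these counts can be a single mate of a pair. Intervals of this kind cover counting error only.

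Among peaks with the higher BALB/cJ response, the promoter peak of Marcksl1, which encodes a MARCKS-like protein of the actin cytoskeleton, changed from equal to unequal alleles. Its centre lies 147 bp upstream of the start. In controls the alleles had 33, 16, 31 and 35 BALB/cJ and 21, 31, 40 and 32 C57BL/6J tags. After LPS they had 304, 257, 187, 274 and 264 against 99, 69, 57, 94 and 61. The BALB/cJ allele was the higher in 2 of 4 control and in 5 of 5 LPS animals. It rose 5.79-fold and the C57BL/6J allele 1.51-fold, and the interaction was -1.88 ± 0.28 (adjusted p = 0.00925, edgeR). The allele ratio was 0.09 in controls (adjusted p = 0.856, edgeR) and -1.79 after LPS (adjusted p = 3.2e-06, edgeR).

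The other called promoters had interactions of the same sign and smaller size. At the start of Ppih, a peptidyl-prolyl isomerase of the spliceosome, the BALB/cJ allele went from 113, 53, 80 and 78 to 382, 307, 223, 317 and 287 tags, and the C57BL/6J allele from 155, 103, 90 and 77 to 207, 230, 141, 202 and 202. The BALB/cJ allele was the higher in 1 of 4 control animals and in all LPS animals, with an interaction of -1.01 ± 0.19 (adjusted p = 0.0367, edgeR), just past the fold threshold. The promoter shared by 4930473A02Rik and Mrps26, a mitochondrial ribosomal protein gene, had 134, 81, 62 and 108 BALB/cJ and 137, 85, 124 and 116 C57BL/6J tags in controls, and 286, 260, 174, 213 and 172 against 134, 117, 56, 141 and 102 after LPS. The alleles moved in opposite directions there (log2 0.58 on BALB/cJ and -0.74 on C57BL/6J), with an interaction of -1.31 ± 0.25 (adjusted p = 0.0367, edgeR). Responses of opposite sign were fitted at 6 of the 16 called peaks. Among them 1 allele was small for its SE at Batf3 (BALB/cJ -0.12 ± 0.23) and F930015N05Rik (C57BL/6J -0.10 ± 0.31). So was that at Il21r (BALB/cJ -0.32 ± 0.19) and H2-Ob (BALB/cJ -0.49 ± 0.30). The remaining ones were Rsad2 and 4930473A02Rik.

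Pag1 encodes a membrane adaptor that recruits the kinase CSK to SRC family kinases. A peak 52594 bp upstream had 21, 14, 18 and 5 BALB/cJ and 41, 22, 29 and 14 C57BL/6J tags in controls, and 94, 93, 71, 104 and 73 against 60, 41, 30, 37 and 56 after LPS. The C57BL/6J allele was the higher in 4 of 4 controls and the BALB/cJ allele in 5 of 5 LPS animals, with an interaction of -1.85 ± 0.33 (adjusted p = 0.0332, edgeR). In an intron of Tbc1d1, a RAB GTPase-activating protein of glucose transport, the BALB/cJ allele went from 34, 26, 43 and 39 to 165, 150, 106, 169 and 134 tags and the C57BL/6J allele from 72, 50, 80 and 74 to 151, 131, 84, 200 and 74. Its interaction was -1.19 ± 0.23 (adjusted p = 0.0424, edgeR). The F930015N05Rik peak, in an intron of the heparan sulfate sulfotransferase gene Hs3st3a1, had 17, 11, 3 and 10 BALB/cJ and 56, 24, 27 and 29 C57BL/6J tags in controls, and 66, 73, 25, 67 and 39 against 55, 63, 21, 63 and 45 after LPS. Its window overlaps that of another peak, and its interaction was -1.86 ± 0.36 (adjusted p = 0.0399, edgeR). At Tbc1d1 and F930015N05Rik the BALB/cJ allele was the lower in all controls and level with the other after LPS (log2 ratios of -0.26 and -0.14).

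The remaining called peaks had an almost silent allele in 1 treatment. The peak assigned to Cldn23, a claudin gene whose start is 109888 bp away, had 3, 0, 0 and 0 BALB/cJ tags in controls and 57, 30, 14, 53 and 43 after LPS, while the C57BL/6J allele had 55, 72, 40 and 49 and then 235, 233, 119, 222 and 143. Both alleles gained, from a C57BL/6J share of 98.6% (exact 95% interval 96.05 to 99.7) to one of 82.9% (80.5 to 85.0), and the interaction was -3.69 ± 0.74 (adjusted p = 0.0447, edgeR). All 3 BALB/cJ control tags came from control replicate 1, without which the interaction was -6.98, and the peak stayed called in 1 of 9 fits with an animal left out. The Gm10416 peak (chr5:109751745-109751945), which overlaps an exon of 4930522L14Rik, had 69, 74, 81 and 30 BALB/cJ and 29, 46, 55 and 8 C57BL/6J tags in controls. After LPS the counts were 36, 36, 25, 46 and 11 against 1, 1, 0, 0 and 0. The C57BL/6J share fell from 35.2% (30.5 to 40.2) to 1.28% (0.156 to 4.55), and the interaction of -4.81 ± 0.62 (adjusted p = 0.00586, edgeR) rests on those 2 tags.

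Of the 12 peaks of smallest p that missed a threshold, 6 are given here, chosen after their values were seen. The promoter of Ly96, which encodes MD-2, had 27, 20, 21 and 26 BALB/cJ tags in controls and 94, 102, 48, 104 and 80 after LPS, against 62, 33, 61 and 51 and then 106, 101, 57, 108 and 79 on the C57BL/6J allele. The C57BL/6J allele was the higher in all 4 controls and the alleles were close after LPS (interaction -1.03 ± 0.22, adjusted p = 0.062, edgeR). A peak 43239 bp from the start of Dusp1, a phosphatase that turns off MAP kinases, closed from 253, 155, 181 and 214 to 107, 79, 59, 87 and 57 tags on the C57BL/6J and from 41, 33, 38 and 45 to 44, 25, 22, 37 and 24 on the BALB/cJ allele. Its interaction of -0.98 ± 0.19 had an adjusted p of 0.0429 (edgeR) and missed the fold threshold, as did the promoters of Rfesd (-0.71, adjusted p = 0.0399, edgeR) and Tmem206 (0.84, adjusted p = 0.0447, edgeR). The promoter of Ccrl2, a chemerin-binding receptor induced in activated macrophages, had an interaction of 0.85 ± 0.18 (adjusted p = 0.0525, edgeR), and an intronic Emilin2 peak one of -2.38 ± 0.51 (adjusted p = 0.0593, edgeR).

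Pathway lists were read by counts and medians beside those of all members (16 of 2756 called, 13% with an unadjusted p under 0.05, median interaction -0.01). Interferon response genes had 16 peaks, of which Oasl1 and Rsad2 were called, both with the higher C57BL/6J response, and 5 had an unadjusted p under 0.05, 3 above and 2 below 0 (median 0.25). Among genes of ATF, EGR, MAF and AP-1 factors there were 21 peaks, of which the Batf3 peak was called and 7 passed at an unadjusted p, 4 above and 3 below 0 (median 0.10). MHC class I and class II genes had 24 peaks, of which that of H2-Ob was called and 6 passed at an unadjusted p, 3 in each direction (median -0.04). The TLR4 complex, adaptors and kinases had 7 peaks with none called and 3 at an unadjusted p under 0.05, 1 above and 2 below 0 (median 0.16).

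No peak was called in the other lists under edgeR. LPS-inducible cytokines and chemokines had 8 peaks, 4 of which gained and 1 of which lost accessibility, and no interaction with an unadjusted p under 0.05 (range -0.10 to 0.57). NF-kB subunits, kinases and feedback inhibitors had 7 peaks with 1 at an unadjusted p under 0.05 (median 0.31), and MAP kinase phosphatases and mRNA decay factors 7 with 1 (median -0.13). Kupffer cell identity factors had 15 peaks with 1 (median -0.21), and LXR targets and lipid genes 13 with 2 (median 0.01). Genes that the study names as examples had 13 peaks with none at an unadjusted p under 0.05 (median -0.04). Only Mcts2 of 45 imprinted genes was represented: its promoter was strongly biased to the paternal C57BL/6J allele in controls (log2 3.70) and after LPS (3.54), the direction known for this paternally expressed gene, with an interaction of -0.15.

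At Tnf, the classic LPS-induced cytokine, both alleles opened alike. Its peak had 33, 20, 29 and 36 BALB/cJ tags in controls and 175, 153, 107, 121 and 134 after LPS, and 38, 25, 44 and 28 and then 157, 170, 127, 126 and 145 C57BL/6J tags. The alleles overlapped in both treatments, with fitted folds of 3.03 and 2.79 and an interaction of -0.10 ± 0.22 (adjusted p = 0.915, edgeR). A Tnfaip3 peak 46770 bp upstream of the gene of the NF-kB inhibitor A20 closed alike on both alleles, from 184, 109, 253 and 134 to 13, 10, 8, 1 and 11 BALB/cJ tags and from 168, 114, 206 and 125 to 13, 10, 11, 1 and 17 C57BL/6J tags (interaction 0.40 ± 0.25). In the inbred strains the same peak went only from a mean of 544 to 414 normalised counts in C57BL/6J and from 456 to 330 in BALB/cJ, a much smaller fall than on the variant-spanning tags of the hybrid, and the cause was not tested. The peak by H2-Aa, the alpha chain of an MHC class II molecule, had log2 responses of -1.88 and -1.84 and an interaction of 0.04 ± 0.20. The promoter of H2-Ab1, its beta chain, had -0.86 and -0.91.

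Allele bias by itself was far more frequent than a change of it. The allele ratio was called at 369 peaks in control animals (13.4%), 207 with C57BL/6J (7.51%) and 162 with BALB/cJ (5.88%) higher. After LPS it was called at 318 (11.5%), 189 with C57BL/6J (6.86%) and 129 with BALB/cJ (4.68%) higher. Of these 218 were called in both and all in the same direction, 151 in controls alone and 100 after LPS alone. Across members the control and LPS ratios had a Pearson's r of 0.81, as a description. The interaction was called at 3 of the 218 peaks biased in both, 8 of the 151, 2 of the 100 and 3 of the 2287 biased in neither; these classes were cut from the same values, so the counts describe only how the calls fall. Bias was complete at some peaks. The Ankle1 peak had 0 BALB/cJ tags in all 9 animals while C57BL/6J tags went from 172, 107, 229 and 119 to 16, 30, 35, 18 and 12, so its BALB/cJ response could not be measured. The St6galnac1 peak was the converse, with 0 C57BL/6J tags throughout and 34, 42, 66 and 34 and then 108, 85, 46, 98 and 99 BALB/cJ tags, and its response on summed alleles did not pass the test (log2 0.28, adjusted p = 0.402, edgeR).

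The size of an allele difference that could be seen depended on depth. The 95% interval of the interaction lay wholly within ±1 at 1313 peaks (47.9% of those with an interval), and so left out a difference of 2-fold or more there. Shares here are of peaks with an interval. That share was 30.9% among the 1648 peaks with a mean of 32 to 64 normalised counts, 71.7% among the 749 peaks from 64 to 2 times 64 and 91.7% among the 293 peaks above that. Members with a mean under 32 after normalisation over tested peaks are in none of these bins. For the remaining peaks a difference past the threshold was not detectable or not excluded at this depth. No interval was available at 16 peaks, among them Ankle1 and St6galnac1, each with an allele that held no tags. Why the others lacked an interval was not examined. The shares at peaks that gained, lost and were not called for LPS were 26.0%, 48.9% and 53.5%. The called peaks had means of 34.6 to 169.7, and 7, 6 and 3 of them lay in the 3 depth bins.

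**Figure D4:**
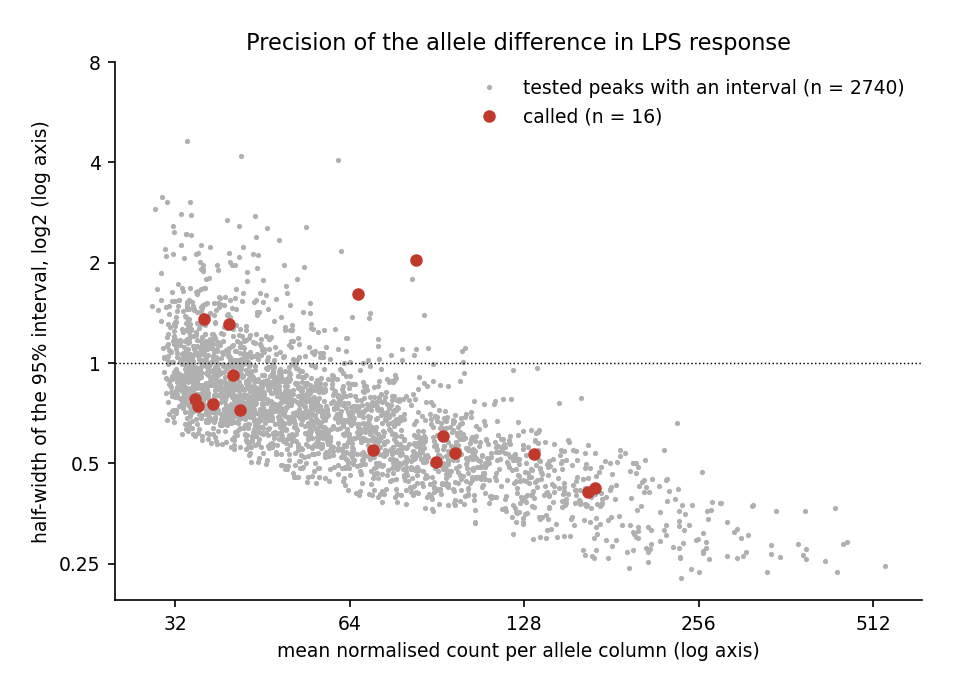
Half-width of the 95% interval of the allele difference (y axis, log2 units, log axis) against the mean normalised count per allele column (x axis, log axis) at the tested peaks, with the 16 called peaks in red and a half-width of 1 dotted. The interval narrows with depth, and its median half-width is 0.82 at means of 32 to 64, 0.55 at up to 2 times 64 and 0.39 above that.

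Motif letters were counted in the 201 bases of every member as a description. AP-1 letters were present in 16.7% of members, in 38.8% of the peaks that gained and 8.19% of those that lost accessibility, and in 3 of the 16 called peaks. IRF letters were in 8.67% of members, 9.18% of gained and 10.8% of lost peaks, and in 1 called peak, that of Rsad2. NF-kB letters were in 5.37% of members and in 0 of 16 called peaks. ETS letters were in 36.5% of members and 6 called peaks, C/EBP letters in 27.6% and 4, and CRE letters in 1.96% and 0.

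The same question can be asked across strains, in animals that share no library with the hybrid. C57BL/6J (4 control, 3 LPS) and BALB/cJ (4 control, 2 LPS) males had the same treatment and sort, and a strain by LPS interaction there combines differences on the chromosome with those in the cell and its surroundings. Of 93007 autosomal peaks tested in the inbred strains 137 were called (0.147%), 76 of them in an interval at the start of chromosome 11 that held 91 tested peaks and no member. Among the members 2492 (90.4%) matched an inbred peak, and 9 of these were called there (0.361%). Over the 2492 the strain and the allele interaction had the same sign at 56.6%, with a Pearson's r of 0.32 and a Spearman's rho of 0.24 as descriptions across peaks, which are not independent replicates.

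Of the 16 peaks called in the hybrid 15 had an inbred match. The sign was the same at 14, an unadjusted inbred p under 0.05 was reached at 11, all with the same sign (15.5% of all matched peaks reached it in either direction), and 2 were called in both, Bcl2l14 and Rsad2. The median strain interaction in the direction of the hybrid was 1.21 against a median absolute allele interaction of 1.85, but the hybrid peaks were chosen for size and the strain values were not. At Rsad2 normalised inbred counts were 27.4, 29.5, 20.8 and 18.4 in C57BL/6J controls and 58.0, 197 and 144 after LPS, against 102, 208, 120 and 108 and then 142 and 140 in BALB/cJ. C57BL/6J alone was low before LPS (strain interaction 2.40 ± 0.46, adjusted p = 0.00801, edgeR), and 1 of its 3 LPS animals stayed below the rest. At Bcl2l14 the inbred C57BL/6J counts went from 25.1, 24.9, 29.9 and 18.4 to 62.3, 106 and 118, and the BALB/cJ counts from 81.2, 103, 112 and 119 to 102 and 93.0 (2.07 ± 0.40, adjusted p = 0.00911, edgeR). The difference had the sign seen in the hybrid, although there both alleles fell after LPS and in the inbred C57BL/6J animals the counts went up.

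**Figure D5:**
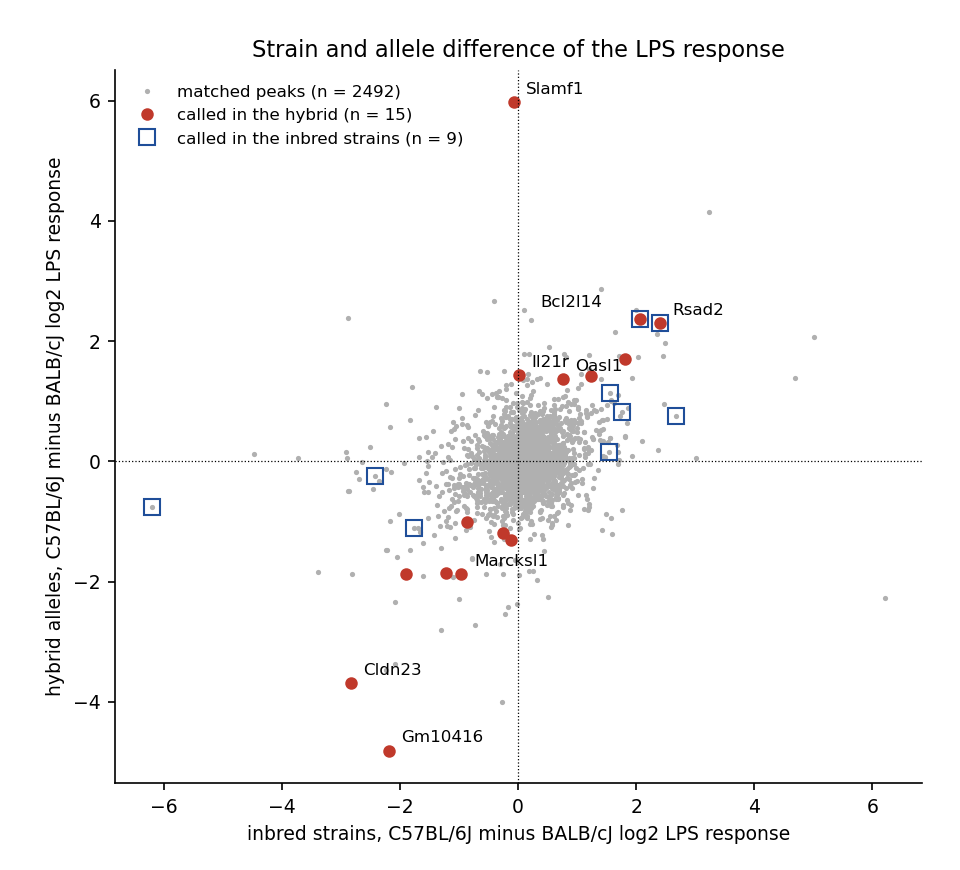
Difference between C57BL/6J and BALB/cJ in log2 LPS response among inbred animals (x axis) and between the alleles of the hybrid (y axis) at 2492 matched peaks, with the 15 matched peaks called in the hybrid in red and the 9 called in the inbred strains as blue squares. Of the red peaks 14 lie in quadrants of equal sign, Slamf1 lies at a strain difference of -0.07, and Bcl2l14 and Rsad2 are called in both.

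Of the other matched peaks, Cldn23 had inbred counts of 0, 0, 1.32 and 0.64 in BALB/cJ controls and 10.5 and 7.97 after LPS, and 89.6, 85.5, 70.1 and 42.1 and then 126, 150 and 155 in C57BL/6J (strain interaction -2.83 ± 0.67, unadjusted p = 1.6e-04, edgeR). Oasl1 had a strain interaction of 0.76 ± 0.33 (unadjusted p = 0.0271, edgeR), Batf3 1.24 ± 0.39 (0.00299) and Marcksl1 -0.96 ± 0.31 (0.00423). Strain and allele interaction were far apart at Il21r, Slamf1 and 4930473A02Rik. At Il21r the inbred C57BL/6J counts were 45.1, 40.4, 44.2 and 40.8 in controls and 29.7, 45.8 and 45.2 after LPS, so that the gain seen on the C57BL/6J allele of the hybrid was not seen in the strain (0.02 ± 0.42, unadjusted p = 0.961, edgeR). Slamf1 opened in both strains, where the C57BL/6J LPS animals had 11.3, 96.8 and 125 normalised counts and those of BALB/cJ 78.9 and 133, with a strain interaction of -0.07 ± 0.87, and 4930473A02Rik had -0.12 ± 0.30.

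Conversely, the 9 matched peaks called in the inbred strains had a median absolute strain interaction of 2.07 and a median allele interaction of 0.82 in the same direction. The peaks were chosen for the size of their strain values, not of their allele values. The sign was the same at all 9, and 4 had an unadjusted p under 0.05 in the hybrid. Strain and allele values were 2.07 and 2.36 at Bcl2l14, 2.40 and 2.30 at Rsad2, 1.56 and 1.13 at Papd7, and -1.75 and -1.11 at Met. They were 2.68 and 0.75 at Mir8104, 1.76 and 0.82 at Aig1, and 1.54 and 0.15 at 1810024B03Rik. The widest gaps were at Vsig8 and Ifi203. A Vsig8 peak went from 1.33, 2.88, 1.32 and 0 to 47.3 and 52.3 normalised counts in BALB/cJ animals (strain interaction -6.20), while on the BALB/cJ allele of the hybrid it went from 9, 3, 7 and 0 tags to 17, 16, 25, 20 and 8 (allele interaction -0.75 ± 0.55). An Ifi203 peak, near an interferon-inducible gene of the HIN family, had a strain interaction of -2.41 and an allele interaction of -0.24 ± 0.39, with the BALB/cJ allele higher in both treatments (log2 ratios of -2.61 and -2.85).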

How the data were processed

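ATAC-seq tag tables of 4 control and 5 LPS CB6F1/J Kupffer cell libraries were used, each library taken as a separate mouse per the labels. For inbred LPS animals a legend in the paper swaps the group sizes of both strains, and the labels' numbers were used. If libraries shared an animal, p-values would measure technical spread. Per the methods, reads were trimmed, aligned with Bowtie2 to the mm10 and BALB/cJ genomes and shifted to mm10 coordinates with MMARGE, and perfectly mapped tags spanning a variant were kept for each parent. Raw tags were counted by HOMER in a 1000-bp window around the centre of each merged reproducible peak. Versions are not given in the sources used here. Of the members 252 had a window that overlaps another's. The authors deposited these expected counts in steps of 0.5 tags, because each mate of a pair weighs 0.5, and values were rounded up, so that a tag printed as 1 may be 0.5. For the inbred LPS libraries the authors deposited counts, and for inbred controls expected counts with the same steps. Library dates and totals per library came from the headers of deposited peak files, whose signal column (normalised tag count per peak) entered no test.

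The interaction was fitted with edgeR 4.0.16 in R 4.3.3 (TMM over tested peaks, quasi-likelihood) with a term per animal, allele, and allele by LPS, on all 18 allele columns. Peaks were selected on a normalisation over all autosomal peaks, so that 1 over tested peaks gives a lowest mean of 29.2. Normalised counts are counts over the effective library size relative to the geometric mean over libraries. The allele ratio in each treatment comes from the same model, and the LPS response from the sum of both alleles. SE values come from the quasi-likelihood statistic. Per-animal ratios were log2 with 0.5 tags added. Chi-square values per degree of freedom between replicates were 3.10 or more, so no library was a copy of another. Inbred strains were fitted in 1 model over 17 libraries (mean normalised count of at least 4), and peaks were matched at 50% reciprocal overlap. Marker levels are normalised counts of perfectly mapped tags at promoter peaks within 1 kb, beside a median of 23.8 over autosomal peaks. Scripts were tested on simulated data. DESeq2 1.42.0 and limma 3.58.1 were alternatives. The members, gene lists and rules were chosen with earlier results of these data known. Named are all called peaks, the smallest p-values in each direction, and peaks chosen by fixed ranks within the gene lists, the allele ratios, the LPS response and the inbred interaction; of these a part is printed. Nearest genes are as deposited, and a nearest gene is not shown to be a target.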

Additional observations from a re-analysis of the deposited data

Results flagged for a closer look

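At each of the 16 called peaks the LPS responses of the alleles differed by the interaction test, as follows in log2 units (edgeR, C57BL/6J minus BALB/cJ). Higher responses of the C57BL/6J allele were found at 6330407A03Rik (4.93), Bcl2l14 (2.36), Rsad2 (2.30), H2-Ob (1.71), Il21r (1.43), Batf3 (1.42) and Oasl1 (1.37). At Slamf1, where controls had 0 C57BL/6J tags, the fitted value was 5.98 and the lower bound 3.02. Higher responses of the BALB/cJ allele were found at Gm10416 (-4.81), Cldn23 (-3.69), Marcksl1 (-1.88), F930015N05Rik (-1.86), Pag1 (-1.85), 4930473A02Rik (-1.31), Tbc1d1 (-1.19) and Ppih (-1.01). The allele ratios were apart in 4 of 4 control against 5 of 5 LPS animals at each of them. That was so at 158 of all 2756 peaks (5.73%), and the calls rest on the same tags, so it is a description only.

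At the 4930473A02Rik promoter, control replicate 3 had a log2 allele ratio of 0.99 and stood far from the other 3 control animals. This was 1 flag among 34 groups of animals, where chance flags about 1 in 20.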

How the results depend on the processing

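In each of 24 alternatives, every one of the 16 peaks that was tested kept its direction and an unadjusted p under 0.05. The alternatives refit tags by which these peaks were chosen, so that is a description only. What changed was how many passed the adjusted threshold. The interaction was called at 16 peaks, at 5 with a minimum mean of 16, at 10 with a minimum of 64, at 0 with no minimum (1950 at an unadjusted p under 0.05, edgeR), at 9 with limma and a pseudocount of 0.5, and at 35 with DESeq2, which kept 15 of the 16. Leaving out 1 animal gave 5 to 19. LPS animals of 1 library date alone, chosen after seeing the data, gave 0 for either date. No label pairs same-numbered animals, and the deviations of their allele ratios correlated at 0.004 to 0.027. Such deviations hold counting error, so low values cannot show whether the animals were paired. With a replicate block on that number, which drops LPS replicate 5 because no control carries it, 0 peaks were called (323 at an unadjusted p under 0.05, edgeR). No scaling (17), rounding down (17), doubled values (14), no term per animal (21), limma with a pseudocount of 2 (19), no overlapping windows (15) and robust shrinkage, also chosen later (19), stayed within 1.5 times. Over the 16 peaks 203 of 375 values stayed called and 172 were no longer called. Of the uncalled peaks, the 10 named for a small p had 14 of 236 values that became called. No direction reversed among these called and uncalled peaks. Some uncalled peaks of larger p did change sign with 1 animal left out. The interaction of the second Rsad2 peak ranged from -5.93 to 1.23 and that of Tnf from -0.28 to 0.04.

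Minimum means of 16 and 64 gave 746 and 94 allele ratios called in controls, 861 and 67 after LPS, and 2157 and 255 LPS responses, and no minimum gave 1184 allele ratios after LPS. LPS replicates 1 and 2, of 1 date, alone gave 208 after LPS. In the inbred strains 137 calls became 66 at a minimum of 32, 211 with a replicate block, 37 without the chromosome 11 interval (chosen after seeing the data) and 76 to 183 with 1 library left out, 76 without BALB/cJ LPS replicate 2, which leaves 1 library assumed to vary like the others. The LPS minus control BALB/cJ share of 0.21 points was 0.11 to 0.29 with 1 animal left out, and 0.29 without control replicate 1 (exact permutation p = 0.0357). Under a mean of 64, most peaks cannot show or exclude a 2-fold allele difference.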

Other observations

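Within 100 kb of 15 of the called peaks lay 48 other tested peaks. Their interaction had the sign of the called peak at 30, and 6 had an unadjusted p under 0.05 (edgeR), 2 of them with the same sign, against 13% of all tested peaks in either direction.

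The Aig1 peak closed on both alleles of the hybrid, from 118, 81, 68 and 58 to 3, 4, 12, 5 and 7 BALB/cJ tags and from 56, 29, 46 and 51 to 6, 4, 7, 5 and 8 C57BL/6J tags. In inbred animals its normalised counts were 79.3, 73.1, 87.0 and 86.8 in C57BL/6J controls and 126, 262 and 268 after LPS, and 196, 185, 289 and 294 and then 196 and 190 in BALB/cJ. The inbred tables count all tags in the window and the hybrid columns only those over a variant, and the cause of the opposite directions was not tested. The Bcl2l14 peak had a like contrast, falling on both alleles in the hybrid while the inbred C57BL/6J counts went up and those of BALB/cJ changed little.

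The share of variant-spanning tags within the peaks called in a library's own file was 40.3 to 55.5% in the control columns and 62.8 to 77.8% in the LPS columns of the hybrid, and 77.8% against 64.8% on the BALB/cJ and C57BL/6J column of LPS replicate 1.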
